A study of Mus musculus with 6 samples.

Results

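Collagens, the enzymes that crosslink them, the metalloproteinases that cut them and the TIMPs that block those enzymes were compared between mouse pancreas taken after cerulein and after saline. Members were all rows of the count table whose symbol names a collagen chain (Col), a matrix metalloproteinase (Mmp), a tissue inhibitor of metalloproteinases (Timp), a lysyl oxidase (Lox, Loxl1 to Loxl4) or an ADAMTS protease. This gave 95 of 36333 genes. Of these, 85 had at least 1 read in some library, 51 passed the filter on low counts and were tested, and 10 were at 0 in all libraries. The 34 members that were counted but not tested did not exceed 38 reads in any library.

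The study asked which coding and long noncoding RNAs change early in acute pancreatitis. Wild-type mice received intraperitoneal cerulein, 10 injections of 200 µl at 200 µg/kg/h, or intraperitoneal saline, and the pancreas was collected when the injections ended. Cerulein mimics the gut hormone cholecystokinin and, in excess, overstimulates the enzyme-secreting acinar cells. There were 3 libraries per group, made from polyadenylated RNA, and the labels used here give neither strain, age, sex nor whether each library is 1 animal, so p-values measure the spread between these libraries.

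Collagens are built from helical chains. Fibrillar collagens give connective tissue its strength, collagen IV forms the sheet of basement membranes under epithelium and around vessels, and collagen VI forms beaded filaments between them. Lysyl oxidases crosslink collagen and elastin. Matrix metalloproteinases and ADAMTS proteases cut matrix proteins, and TIMPs bind and inhibit many of them. In the pancreas, stellate cells and fibroblasts are the main source of fibrillar collagen, and they lay it down in excess in chronic pancreatitis.

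Total counts lay between 6307887 and 7610775 in cerulein libraries and between 5335117 and 7194125 in saline libraries. Levels are given as CPM, read counts scaled to the size of each library after TMM correction, a factor that evens out the bulk of genes. Acinar markers summed to between 189005 and 239548 CPM in cerulein libraries and between 324470 and 629337 CPM in saline libraries, saline replicate 1 held the lowest saline value, and 7 of the 8 markers fell. In bulk tissue, fewer cells of a type and less RNA per cell cannot be told apart. Markers of stellate cells and fibroblasts, 14 genes with none at 0, summed to 422 ± 66.6 CPM in cerulein and 453 ± 44.2 CPM in saline (SD, n = 3 each), and of 13 tested 2 rose and 1 fell. The 11 endothelial markers summed to 216 ± 18.1 CPM in cerulein and 212 ± 10.1 CPM in saline, with 2 higher and 2 lower. The 13 macrophage markers summed to between 619 and 749 CPM in cerulein libraries and between 228 and 512 CPM in saline libraries, with 5 higher and none lower. All 8 duct markers rose. Shares that rose and fell were 15.4% and 7.69% for stellate and fibroblast markers, and 18.2% and 18.2% for endothelial markers. For macrophage markers they were 38.5% and 0%, for duct markers 100% and 0%, and for acinar markers 0% and 87.5%. Over all tested genes, 28.7% rose and 27.1% fell. The part of these cell types in the results below was not tested.

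After cerulein, 26 of the 51 tested members were higher and 7 were lower at an adjusted p under 0.05 (edgeR quasi-likelihood test, Benjamini-Hochberg over 12441 genes), and 18 did not pass. That is 51.0% higher and 13.7% lower, where 28.7% of all tested genes were called higher and 27.1% lower. The tested members had a median log2 fold change of 0.62, against -0.001 over the 12441 genes. At least 2-fold changes were 16 higher and 5 lower, against 18.3% and 17.7% of all tested genes. All cerulein libraries lay above all saline libraries for 28 members (54.9%) and below them for 9 (17.6%), where the shares over all tested genes were 32.4% and 30.6%. Of the tested members, 12 stood over the filter level in every cerulein library but not in every saline library, so they entered the test through the group where they were high; 8 of the 26 higher calls are among them, namely Col27a1, Col8a1, Col12a1, Loxl4, Mmp3, Mmp7, Mmp24 and Adamts4. Another 3 stood over that level in every saline library but not in every cerulein library, and 1 of the 7 lower calls, Col4a4, is among these. For such genes the filter and the direction are not independent. Directions depend partly on scaling. Scaling by library size alone shifted the whole table upward, with a median of 0.56 on the log2 scale, and gave 31 members higher and 1 lower. Over all tested genes, that scaling called 41.6% higher and 11.6% lower. No called member changed sign.

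**Figure D1:**
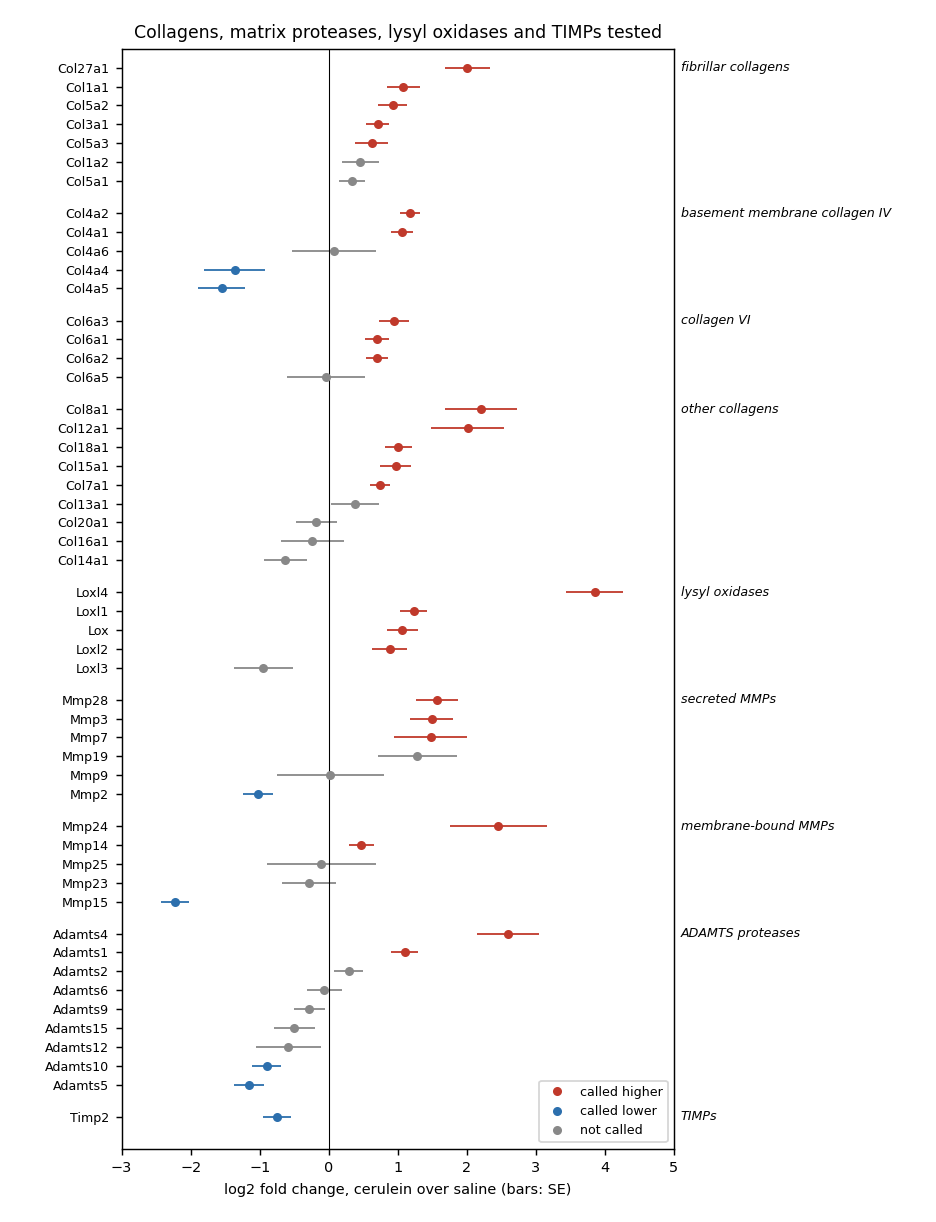
Log2 fold change, cerulein over saline, of the 51 tested members by role, with standard errors from the fit over 3 libraries per group; red points were called higher, blue points lower and grey points did not pass. Loxl4 stood highest at 3.85 and Mmp15 lowest at -2.23.

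Among fibrillar collagens, 5 of 7 tested chains rose (71.4%) and none fell, beside 28.7% and 27.1% of all tested genes. Col1a1, the major chain of collagen I at chromosome 11, 94936224 to 94953042 (mm10), had 61.9, 39.3 and 39.8 CPM in cerulein replicates 1, 2 and 3, against 16.1, 23.7 and 27.8 CPM in saline replicates 1, 2 and 3. The lowest cerulein library lay above the highest saline library, and the log2 fold change was 1.08 ± 0.24 (SE, adjusted p = 0.00186, edgeR). Its partner in the collagen I helix, Col1a2, had 61.7, 38.5 and 36.9 CPM in cerulein libraries against 22.1, 36.3 and 42.7 CPM in saline libraries. Those groups overlap, and Col1a2 did not pass (0.46 ± 0.27, adjusted p = 0.172, edgeR), although it did with library size alone (1.09) and with no count filter (0.53).

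The collagen I chains were also set against each other. Per kilobase of exon, Col1a1 stood at 1.90, 1.93 and 2.04 times Col1a2 in cerulein replicates 1, 2 and 3, against 1.38, 1.24 and 1.23 times in saline replicates 1, 2 and 3. The ratio was higher in all cerulein libraries than in any saline library, and as a ratio within each library it is free of the scaling factor. With 3 libraries per group an exact two-sided permutation test cannot go below p = 0.1, so it carries no test here. Collagen I is mostly a trimer with more Col1a1 than Col1a2 chains, a proportion that these read ratios do not measure. For the basement membrane pair Col4a1 and Col4a2, the ratio per kilobase of exon was 1.546, 1.501 and 1.499 in cerulein libraries and 1.803, 1.635 and 1.502 in saline libraries. For Col6a1 over Col6a2 it was 2.20, 2.03 and 1.93 in cerulein libraries and 1.75, 1.93 and 2.61 in saline libraries. The groups overlapped for both of these pairs. The type V pair, Col5a1 over Col5a2, stood at 0.74, 0.73 and 0.95 in cerulein libraries and at 1.25, 1.41 and 0.98 in saline libraries, and Col3a1 over Col1a1 at 1.65, 1.98 and 2.09 in cerulein libraries and at 2.96, 2.40 and 2.04 in saline libraries. The type V groups did not overlap, although the third library of each group lay close together, and the Col3a1 groups overlapped. All 5 pairs computed are given.

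**Figure D2:**
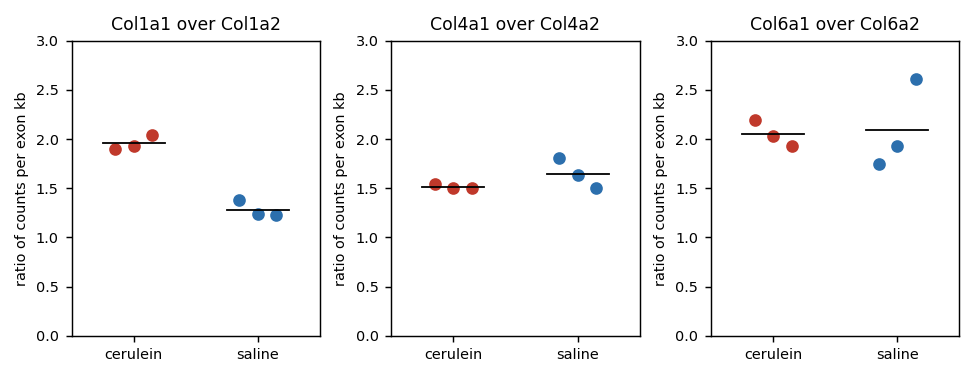
Ratio of counts per kilobase of exon for 3 pairs of collagen chains, with 1 point per library and a line at the group mean (n = 3 per group). The Col1a1 over Col1a2 ratio lies between 1.90 and 2.04 in cerulein and between 1.23 and 1.38 in saline, whereas the Col6a1 over Col6a2 groups overlap.

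Col3a1, which forms fibrils with collagen I in soft organs, had 153, 116 and 124 CPM in cerulein libraries and 71.2, 84.9 and 84.8 CPM in saline libraries, without overlap (log2 fold change 0.71 ± 0.16, adjusted p = 0.00239, edgeR). Col5a2, of the collagen V that starts fibril assembly, had 24.5, 20.7 and 16.5 CPM in cerulein libraries against 10.6, 9.01 and 13.1 CPM in saline libraries and rose by 0.93 ± 0.21 on the log2 scale. Col27a1, a fibrillar chain best known from cartilage, had 8.40, 7.02 and 7.83 CPM in cerulein libraries and 2.57, 1.58 and 1.29 CPM in saline libraries. Its log2 fold change of 2.01 ± 0.33 (adjusted p = 0.000189, edgeR) was the largest among the fibrillar chains tested, and it passed the filter on low counts through the cerulein libraries. Col5a3 rose by 0.62 ± 0.23 (adjusted p = 0.0374, edgeR), a call that was lost with upper-quartile factors, with DESeq2 and without cerulein replicate 1, cerulein replicate 2, saline replicate 1 or saline replicate 3. Col5a1 did not pass, at 0.33 ± 0.19.

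**Figure D3:**
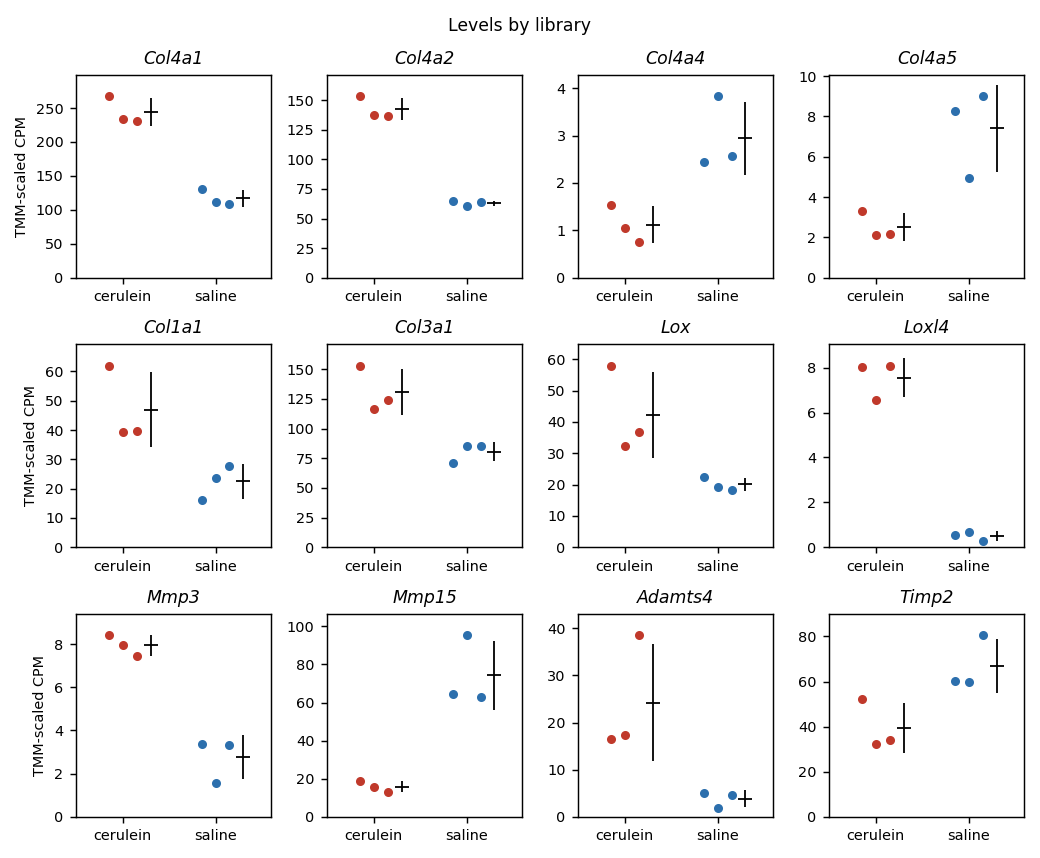
TMM-scaled CPM of 12 members in each library, with the mean and SD of each group beside its 3 points, cerulein on the left of each panel. The groups are separate in all 12 panels, with Col4a4, Col4a5, Mmp15 and Timp2 lower after cerulein and the other 8 higher.

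Of 5 collagen IV chains tested, 2 rose (40.0%), 2 fell (40.0%) and 1 did not pass. Over all tested genes, 28.7% rose and 27.1% fell. Mouse collagen IV genes lie head to head in pairs, Col4a1 with Col4a2 on chromosome 8, Col4a3 with Col4a4 on chromosome 1, and Col4a5 with Col4a6 on chromosome X. The Col4a1 and Col4a2 transcripts form the ubiquitous network of basement membranes, and the others form more restricted networks, such as that of the kidney glomerulus. In RefSeq the spans of Col4a1 (11198423 to 11312889) and Col4a2 (11312805 to 11449287) share 85 bases at their starts, and those of Col4a3 and Col4a4 share 114 bases, and how reads from these bases were assigned is not given in the sources used here.

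Col4a1 had 267, 233 and 231 CPM in cerulein libraries against 131, 111 and 108 CPM in saline libraries. Its neighbour Col4a2 had 153, 138 and 136 CPM in cerulein libraries against 64.5, 60.4 and 63.8 CPM in saline libraries. Both groups were tight and far apart, and the log2 fold changes were 1.06 ± 0.16 for Col4a1 and 1.18 ± 0.15 for Col4a2 (adjusted p = 0.000121 and 1.82e-05, edgeR). Per kilobase of exon, Col4a1 was at 32.7 CPM in cerulein and 15.6 CPM in saline, the highest level of any member on that scale in cerulein.

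Col4a5, the chain mutated in X-linked Alport syndrome in humans, had 3.31, 2.11 and 2.15 CPM in cerulein libraries and 8.26, 4.96 and 8.999 CPM in saline libraries, a fall by 1.55 ± 0.34 in log2 units (adjusted p = 0.00165, edgeR). Col4a4 had 1.54, 1.05 and 0.758 CPM in cerulein libraries and 2.44, 3.83 and 2.57 CPM in saline libraries. It passed the filter through the saline libraries. Its log2 fold change was -1.36 ± 0.44 (adjusted p = 0.0181, edgeR), with no call without cerulein replicate 2, cerulein replicate 3 or saline replicate 2, and neither chain was called with library size alone (-0.79 for Col4a4 and -0.99 for Col4a5). Col4a3, named after its values were seen, had 0 reads in each cerulein library against 4, 3 and 3 reads in saline libraries. With the cerulein group set to a floor of 3 reads, Col4a3 was at least 5.29-fold lower after cerulein. That floor takes the saline reads as exact, so the fold is not a confidence bound. Col4a6 did not pass, with 1.46 ± 0.851 CPM in cerulein and 1.42 ± 0.934 CPM in saline (SD, n = 3 each).

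All 3 main collagen VI chains rose together. They were 75.0% of the 4 chains tested and none fell, beside 28.7% higher and 27.1% lower over all tested genes. Col6a1 had 49.4, 43.4 and 36.6 CPM in cerulein libraries and 23.0, 26.8 and 30.3 CPM in saline libraries. The log2 fold changes were 0.70 ± 0.17 for Col6a1, 0.70 ± 0.16 for Col6a2 and 0.94 ± 0.22 for Col6a3 (adjusted p = 0.00393, 0.00218 and 0.00252, edgeR). Col6a5, at 4.97, 2.81 and 6.82 CPM in cerulein libraries and 9.48, 2.25 and 2.06 CPM in saline libraries, did not pass.

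Of the 9 other collagens tested, 5 rose (55.6%) and none fell, beside 28.7% and 27.1% of all tested genes. Col7a1, which anchors epithelium to the tissue below, had 110, 92.5 and 108 CPM in cerulein libraries and 64.2, 64.2 and 57.3 CPM in saline libraries (log2 fold change 0.74 ± 0.15, adjusted p = 0.000837, edgeR). The basement membrane collagens Col15a1 and Col18a1, whose ends are released as angiogenesis inhibitors, the Col18a1 fragment being endostatin, rose by 0.97 ± 0.22 and 1.01 ± 0.20. Col8a1, of the short-chain collagen VIII of vessel walls, had 6.15, 2.93 and 2.40 CPM in cerulein libraries against 0.948, 0.901 and 0.514 CPM in saline libraries. Col12a1, which decorates collagen I fibrils, had 7.69, 3.16 and 3.03 CPM in cerulein libraries against 1.35, 0.451 and 1.54 CPM in saline libraries. For both, cerulein replicate 1 stood above all other libraries, and the log2 fold changes were 2.20 ± 0.52 for Col8a1 and 2.01 ± 0.53 for Col12a1 (adjusted p = 0.00283 and 0.00554, edgeR). Without cerulein replicate 1 they were 1.70 and 1.45. The other fibril-associated chains Col14a1, Col16a1 and Col20a1 did not pass, with log2 fold changes of -0.63, -0.24 and -0.18.

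Summed over all 44 collagen rows, collagen transcripts took 0.141%, 0.102% and 0.113% of counted reads in cerulein replicates 1, 2 and 3, against 0.0557%, 0.0378% and 0.0401% in saline replicates 1, 2 and 3. On the TMM scale the sums were 963 ± 106 CPM in cerulein and 539.7 ± 12.0 CPM in saline (SD, n = 3 each), with every cerulein library above every saline library. Collagen IV made up 391 ± 31.6 CPM of the cerulein sum, more than the fibrillar chains with 282 ± 51.1 CPM (SD, n = 3 each).

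Crosslinking enzymes rose for 4 of 5 members (80.0%) and fell for none, beside 28.7% and 27.1% of all tested genes. Loxl4 had 8.05, 6.55 and 8.08 CPM in cerulein libraries against 0.542, 0.676 and 0.257 CPM in saline libraries, which are 68, 56 and 64 reads against 4, 3 and 1 reads. The groups are far apart, and the log2 fold change of 3.85 ± 0.41 (adjusted p = 5.05e-06, edgeR) was the largest of all tested members, between 3.62 and 4.06 when each library in turn was left out. Loxl4 passed the filter through the cerulein libraries. Loxl1, which acts on elastic fibres, had 39.4, 34.2 and 33.0 CPM in cerulein libraries and 19.0, 12.4 and 13.4 CPM in saline libraries (1.23 ± 0.19, adjusted p = 0.000134, edgeR). Lox, the founding member, had 57.9, 32.2 and 36.7 CPM in cerulein libraries and 22.5, 19.4 and 18.3 CPM in saline libraries (1.07 ± 0.22), and Loxl2 rose by 0.88 ± 0.26. Per kilobase of exon, Loxl1 and Lox were the highest of the family after cerulein, at 10.8 and 8.85 CPM, and Loxl4 stood at 1.79 CPM. Loxl3 pointed the other way, with 1.89, 1.17 and 1.52 CPM in cerulein libraries and 2.30, 2.48 and 4.37 CPM in saline libraries, and did not pass (adjusted p = 0.0745, edgeR).

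Secreted metalloproteinases rose for 3 of 6 tested genes and fell for 1. Mmp3, the stromelysin that cuts proteoglycans and activates other metalloproteinases, had 8.40, 7.96 and 7.45 CPM in cerulein libraries against 3.39, 1.58 and 3.34 CPM in saline libraries (1.49 ± 0.32, adjusted p = 0.00132, edgeR). Mmp28, an epithelial metalloproteinase, had 7.81, 6.67 and 6.44 CPM in cerulein libraries and 1.90, 2.48 and 2.83 CPM in saline libraries (1.57 ± 0.31, adjusted p = 0.000808, edgeR). Both genes were higher in every cerulein library than in any saline library. Mmp7, matrilysin, which is made by epithelial cells, had 1.89, 3.63 and 2.78 CPM in cerulein libraries and 1.49, 0.225 and 1.03 CPM in saline libraries. Its rise of 1.48 ± 0.53 (adjusted p = 0.0312, edgeR) lost its call with upper-quartile factors, with DESeq2 and without cerulein replicate 2, cerulein replicate 3, saline replicate 2 or saline replicate 3.

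Mmp2, the gelatinase of stromal cells, had 12.5, 8.31 and 7.70 CPM in cerulein libraries and 18.4, 18.2 and 21.9 CPM in saline libraries. It was lower in every cerulein library, with a log2 fold change of -1.03 ± 0.22 (adjusted p = 0.00142, edgeR), and was not called with library size alone (-0.44). Among the stellate and fibroblast markers, Dcn, the collagen-binding proteoglycan decorin, also fell, with 104 ± 14.98 CPM in cerulein and 212 ± 24.2 CPM in saline (log2 fold change -1.03 ± 0.17, adjusted p = 0.000225, edgeR), while Pdpn and Vim rose by 1.71 ± 0.27 and 1.05 ± 0.27. These 3 markers are the called ones of that list, named after their values were seen, and their part in the Mmp2 result was not tested.

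Mmp3 and Mmp7 belong to a cluster of 10 Mmp genes within 427 kb of chromosome 9 (7272514 to 7699585). Several metalloproteinases of this cluster are textbook targets of AP-1, the transcription factor of Fos and Jun proteins, through a site close to the start. The sequences below show the 120 bases before the annotated start of 6 cluster genes with reads in these libraries and, for contrast, of Loxl4, read 5′ to 3′ on the strand of the gene from RefSeq (GRCm38.p6). Capitals mark the AP-1 motif TGANTCA, which reads the same on both strands.
Mmp13: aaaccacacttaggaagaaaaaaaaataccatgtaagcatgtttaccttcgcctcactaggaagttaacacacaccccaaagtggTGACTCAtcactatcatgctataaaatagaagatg
Mmp12: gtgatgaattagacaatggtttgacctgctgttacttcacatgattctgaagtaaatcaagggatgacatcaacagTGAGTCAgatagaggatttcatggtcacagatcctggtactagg
Mmp3: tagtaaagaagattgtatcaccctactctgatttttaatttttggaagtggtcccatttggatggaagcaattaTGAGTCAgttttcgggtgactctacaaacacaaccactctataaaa
Mmp10: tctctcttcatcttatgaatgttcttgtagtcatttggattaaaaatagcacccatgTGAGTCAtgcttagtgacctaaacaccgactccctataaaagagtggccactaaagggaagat
Mmp8: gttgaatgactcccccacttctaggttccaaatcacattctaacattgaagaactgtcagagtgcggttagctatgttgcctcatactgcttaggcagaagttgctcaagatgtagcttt
Mmp7: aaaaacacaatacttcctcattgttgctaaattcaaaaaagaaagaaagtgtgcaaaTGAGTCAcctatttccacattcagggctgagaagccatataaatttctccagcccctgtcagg
Loxl4: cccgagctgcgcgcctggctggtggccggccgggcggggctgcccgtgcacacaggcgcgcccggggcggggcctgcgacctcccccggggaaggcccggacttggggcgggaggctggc

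The motif begins 35 bases before the start in Mmp13, 44 in Mmp12, 46 in Mmp3, and 63 in both Mmp10 and Mmp7. For Mmp12 the second of its annotated starts is shown, and for Mmp7 the first; the other start of each gene has no such motif in its window. Over windows of 250 bases before and 50 bases from the start, the motif stands in 8 of the 10 cluster genes, among them Mmp1a, Mmp1b and Mmp20, which were at 0 in all libraries. It stands in 1 of the 58 other members with a window, Col6a1. Over all genes it stands in 7.81% of 32851 windows, a share per window, whereas the members are counted per gene. Windows matched 68 of the members outside chromosome 18. Members with no window, among them Col1a1, Mmp2, Mmp9, Loxl1 and Adamts4, were not searched. A match is a description of letters and not a measured binding site.

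Reads of the cluster genes that were not tested are given for their place in the cluster, after their values were seen. Mmp13, the main interstitial collagenase of mice, had 5, 19 and 12 reads in cerulein libraries and 0, 2 and 0 reads in saline libraries, a ratio of 11.4 per scaled library with an exact 95% interval of 2.92 to 97.3. Mmp10, stromelysin 2, had 10, 9 and 0 reads in cerulein libraries and none in saline libraries, at least 3.99-fold higher against a floor of 3 reads over the group. Mmp12, the macrophage metalloelastase, had 3, 5 and 2 reads in cerulein libraries and none in saline libraries, at least 2.10-fold higher. The interval for Mmp13 covers counting error only, not the spread between libraries. The floors for Mmp10 and Mmp12 take the cerulein reads as exact, so their folds are not confidence bounds. All 3 genes rest on few reads, and 1 cerulein library held no Mmp10 read.

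**Figure D4:**
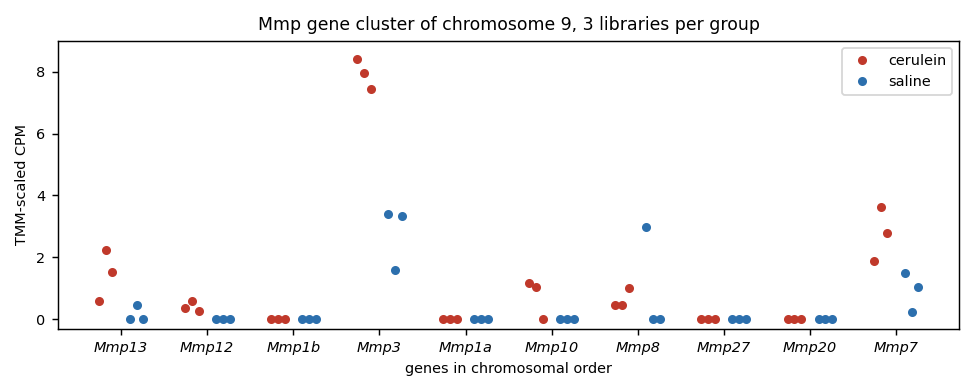
TMM-scaled CPM of the 10 Mmp genes of the chromosome 9 cluster in chromosomal order, with 3 cerulein and 3 saline points per gene. Mmp3 reaches 7.45 to 8.40 CPM in cerulein libraries, and Mmp1a, Mmp1b, Mmp20 and Mmp27 are at 0 in all libraries.

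For metalloproteinases known from neutrophils, 1 saline library stood apart from the others. Mmp9, the gelatinase of neutrophils and macrophages, had 7.81, 7.84 and 9.47 CPM in cerulein libraries and 18.01, 1.58 and 3.09 CPM in saline libraries. Mmp8, the neutrophil collagenase, had 4, 4 and 8 reads in cerulein libraries and 22, 0 and 0 reads in saline libraries. Mmp25, a membrane-bound enzyme of neutrophils, had 0.829, 1.52 and 1.64 CPM in cerulein libraries and 3.12, 0 and 0.514 CPM in saline libraries. In each case saline replicate 1 was the highest of all libraries and the other two saline libraries were below every cerulein library.

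The 13 neutrophil markers, of which none was at 0 in all libraries, summed to 157, 227 and 242 CPM in cerulein libraries and to 275, 30.2 and 63.8 CPM in saline libraries, with saline replicate 1 again the highest, and of 9 tested 3 rose and none fell. The share that rose, 33.3%, is near the 28.7% of all tested genes, and 27.1% of all tested genes fell. The part of neutrophil RNA in these results was not tested. Mmp9 did not pass (log2 fold change 0.02 ± 0.78, adjusted p = 0.984, edgeR). Without saline replicate 1 it was 1.83 with adjusted p = 0.000336, and over all libraries left out in turn it lay between -0.43 and 1.83. Mmp19, a broadly expressed enzyme, had its highest saline value in the same library, with 12.1, 6.20 and 8.08 CPM in cerulein libraries and 7.04, 1.58 and 1.03 CPM in saline libraries. It did not pass with all libraries, at 1.28 ± 0.57 (adjusted p = 0.0867, edgeR). Without saline replicate 1 it was 2.69 (adjusted p = 5.66e-05, edgeR), and with all libraries it also passed with DESeq2, limma-voom, library size alone and no count filter. Without saline replicate 1, Mmp25 was at 2.34 and Col6a5 at 1.13 (adjusted p = 0.0495 and 0.0469, edgeR). In that fit 32 members were higher and 8 lower, where 29.2% of all genes tested in it were higher and 28.1% lower. Its filter let in members not tested with all libraries, and Col11a2, Col26a1 and Mmp13 are among the 32.

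**Figure D5:**
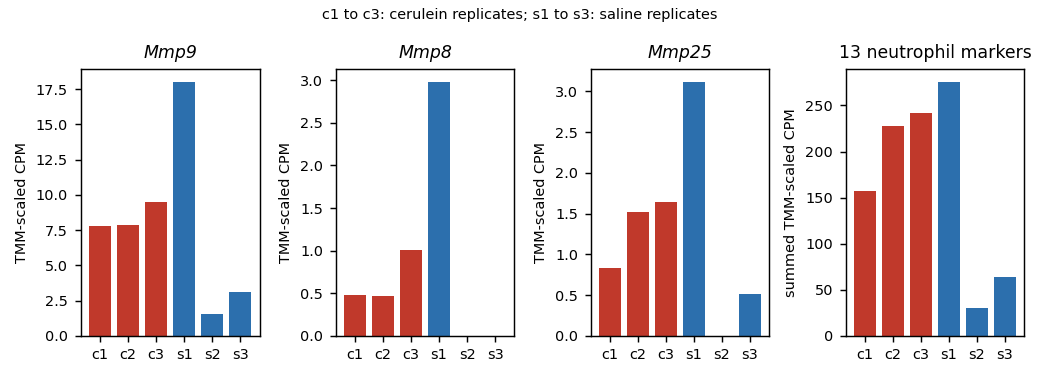
TMM-scaled CPM per library of Mmp9, Mmp8 and Mmp25 and the summed level of 13 neutrophil markers, with cerulein replicates on the left and saline replicates on the right. Saline replicate 1 is the highest bar in all 4 panels, at 18.01 CPM for Mmp9 and 275 CPM for the marker sum.

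Among membrane-bound metalloproteinases, Mmp15 fell and 2 others rose. Mmp15, an MT-MMP of epithelial tissues, at chromosome 8, 95352296 to 95374293, had 18.6, 15.8 and 12.9 CPM in cerulein libraries and 64.6, 95.3 and 63.0 CPM in saline libraries. It was the strongest fall of all tested members, by 2.23 ± 0.20 in log2 units (adjusted p = 1.27e-06, edgeR), and the only lower call among the members that held with library size alone. Mmp14, the MT-MMP that activates Mmp2, had 40.6, 46.3 and 37.9 CPM in cerulein libraries and 34.1, 22.8 and 32.7 CPM in saline libraries. Its rise of 0.47 ± 0.18 (adjusted p = 0.0388, edgeR) was lost with upper-quartile factors, with DESeq2 and without any 1 library except saline replicate 1. Per kilobase of exon, Mmp14 stood at 6.98 CPM and Mmp15 at 2.92 CPM after cerulein, against 5.01 CPM and 13.8 CPM after saline, so the order of these levels was turned round. Mmp24, best known from neurons, had 11, 15 and 11 reads in cerulein libraries and 2, 0 and 2 reads in saline libraries (2.46 ± 0.70, adjusted p = 0.00929, edgeR).

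Of 9 ADAMTS proteases tested, 2 were higher and 2 lower, 22.2% each way, which is near the 28.7% and 27.1% of all tested genes. Adamts4, an aggrecanase, had 16.6, 17.4 and 38.5 CPM in cerulein libraries and 5.15, 1.80 and 4.63 CPM in saline libraries, with cerulein replicate 3 far above the rest (2.60 ± 0.45, adjusted p = 0.00111, edgeR). Without cerulein replicate 3 the log2 fold change was 2.11. Adamts1, which cuts versican and is induced in many inflamed tissues, had 32.3, 24.2 and 33.0 CPM in cerulein libraries and 16.1, 12.4 and 12.9 CPM in saline libraries (1.10 ± 0.19, adjusted p = 0.000322, edgeR).

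Adamts5, the other main aggrecanase, had 5.44, 6.08 and 5.56 CPM in cerulein libraries and 12.2, 13.7 and 12.3 CPM in saline libraries, a fall by 1.16 ± 0.22 (adjusted p = 0.000562, edgeR). Adamts1 (85793827 to 85803113) and Adamts5 (85858157 to 85901125) lie close together on chromosome 16, and 1 rose while the other fell. Adamts10, which binds fibrillin microfibrils, had 10.4, 8.66 and 7.07 CPM in cerulein libraries and 17.5, 15.1 and 16.2 CPM in saline libraries, a fall by 0.90 ± 0.21. With library size alone the changes of Adamts5 and Adamts10 were -0.59 and -0.34 and neither was called. The procollagen-processing enzyme Adamts2 did not pass (0.29 ± 0.21), nor did Adamts6, Adamts9, Adamts12 and Adamts15, which lay between -0.58 and -0.06.

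TIMPs were measured for 1 of 4 genes. Timp2, which inhibits metalloproteinases and also helps Mmp14 to activate Mmp2, had 52.3, 32.2 and 34.2 CPM in cerulein libraries and 60.1, 59.9 and 80.5 CPM in saline libraries. Every cerulein library was lower, and the fall was 0.75 ± 0.20 on the log2 scale (log2 fold change -0.75, adjusted p = 0.00678, edgeR), with no call with library size alone (-0.15). Timp1, Timp3 and Timp4 were at 0 in all 6 libraries. Their RefSeq spans lie inside those of Syn1, Syn3 and Syn2. Col10a1 lies inside that of Nt5dc1 and Mmp27 inside that of Gm31751. Of the 6 members inside another gene of the table, 5 were at 0, against 5 of the 89 others. The exception was Mmp8, which lies inside Gm31751 as Mmp27 does. It had 4, 4 and 8 reads in cerulein libraries and 22, 0 and 0 reads in saline libraries. Gm31751 itself had 1 read, in saline replicate 1. The zeros of the members inside other genes were taken as no measurement and say nothing of the level of Timp1. The part of the overlap in these zeros was not tested. Syn1, the gene around Timp1, had 74, 56 and 44 reads in cerulein libraries and 11, 1 and 4 reads in saline libraries (2.79 ± 0.45, adjusted p = 0.000168, edgeR), and what share of those reads comes from Timp1 was not tested. Syn1 passed the filter through the cerulein libraries. The genes around Timp3, Timp4 and Col10a1 went the other way. Log2 fold changes were -2.21 ± 0.45 for Syn3 and -0.55 ± 0.22 for Syn2 (adjusted p = 0.00103 and 0.0454, edgeR). Nt5dc1 was at -0.96 ± 0.23 (adjusted p = 0.00346, edgeR). What share of their reads comes from the members inside them was not tested either. The members at 0 that do not lie inside another gene were Col9a1, Col19a1, Mmp1a, Mmp1b and Mmp20, of which Mmp20 partly overlaps AV064505. They too count as not measured. If their zeros were measurements, 0 of 39133129 counts would allow up to 0.0767 CPM over all libraries.

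Other genes that make and remodel matrix were taken from lists chosen with the study's tissue in mind. Of 24 tested genes of collagen folding and processing, 8 rose (33.3%) and 6 fell (25%), shares near those of all tested genes, with a median log2 fold change of 0.23. Serpinh1, the collagen chaperone HSP47, had 229 ± 29.8 CPM in cerulein and 27.1 ± 3.72 CPM in saline (SD, n = 3 each), a log2 fold change of 3.08 ± 0.18 (adjusted p = 3.85e-08, edgeR). P4ha2, a prolyl hydroxylase subunit, rose by 2.59 ± 0.20, whereas Ppib, a prolyl isomerase of the ER, fell by 2.10 ± 0.21, and Ctage5, a partner in the export of large cargo from the ER, fell by 2.05 ± 0.15.

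Of 33 other matrix proteins, 16 rose (48.5%) and 5 fell (15.2%). They included the matricellular genes Cyr61 at 4.03 ± 0.29, Tnc at 3.31 ± 0.37 and Thbs1 at 2.69 ± 0.27, and the hyaluronan synthase Has1 at 3.02 ± 0.45. Tnc had 11, 3 and 10 reads and Has1 had 3, 11 and 6 reads in saline libraries, so both passed the filter through the cerulein libraries. Of 25 other proteases and regulators, 9 rose (36%) and 3 fell (12%). The urokinase receptor Plaur rose by 3.30 ± 0.25, and the lysosomal cathepsins Ctsl and Ctsb rose by 1.85 ± 0.20 and 1.68 ± 0.23. Of 8 collagen receptors, 3 rose (37.5%) and 1 fell (12.5%). Ddr1, the epithelial collagen receptor kinase, was at 1.58 ± 0.20, the integrin chains Itgb1 and Itga2 at 1.20 ± 0.16 and 3.96 ± 0.82, and the leukocyte receptor Lair1 at -1.10 ± 0.38. Itga2 had 28, 12 and 15 reads in cerulein libraries and 2, 0 and 0 reads in saline libraries, and passed the filter through the cerulein libraries. Over these 4 lists 36 of 90 genes rose and 15 fell, beside the shares of 28.7% and 27.1% for all genes. For listed genes that passed the filter through a single group, the filter and the direction are not independent.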

How the data were processed

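RNA-seq of mouse pancreas, 3 cerulein and 3 saline libraries, was deposited by the authors as 1 table of raw read counts per gene, with no normalization. Per the submitters' processing notes, Trimmomatic, STAR, HTSeq and the mm10 build were used; no source used here states the strand setting or the annotation. Per the labels' protocols, libraries came from the TruSeq Stranded mRNA kit. Columns were assigned by their titles. Differences were fitted for genes passing filterByExpr (minimum count 10, minimum total 15) by edgeR 4.0.16 under R 4.3.3 (glmQLFit and glmQLFTest, TMM factors, all 6 libraries, no covariate), with Benjamini-Hochberg adjustment over 12441 genes and calls at 0.05; the procedure was tested on simulated data. TMM factors lay between 1.13 and 1.3 in cerulein libraries and between 0.719 and 1.03 in saline libraries. Alternatives were DESeq2 1.42.0, limma-voom (limma 3.58.1), other factors and filters, a replicate block and each library left out. Gene spans and promoter windows come from RefSeq GRCm38.p6, and exon lengths, with all annotated exons of a gene joined, from GENCODE M21. Any tested member could be named, and from each other list at most 4 genes, smallest p first; members that were not tested, and library values of members that did not pass, were picked after their values were seen. Members and lists were chosen with earlier results of these data known. A gene that the rule for the other lists picks is not reported here.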

Additional observations from a re-analysis of the deposited data

How the results depend on the processing

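The counts of members called higher were 26 in the fit reported and between 23 and 34 over the alternatives, and no called member changed sign. These counts do not all cover the same members. With no count filter, 6 higher calls were of members not tested in the fit reported. The share of all genes called higher was 28.7% in that fit, 19.9% with no count filter and 41.6% with library size alone. With library size alone, members called lower numbered 1 in place of 7, and genes of the 4 other lists called lower numbered 4 in place of 15. Over all genes, 11.6% were called lower with library size alone in place of 27.1%. Leaving out 1 library at a time gave 23 to 32 members higher and 6 to 8 lower, and 29 to 38 higher and 12 to 15 lower in the other lists. Each of these fits filtered anew, so the genes tested differ. Of all genes they tested, 24.2% to 29.2% were higher and 22.8% to 28.1% lower. With a replicate block 27 members were higher and 7 lower, and 38 and 15 in the other lists. Mmp19 passed under the block, at 1.56 with an adjusted p of 0.00267 (edgeR), where its adjusted p over the other alternatives lay between 5.66e-05 and 0.209. Libraries with the same number correlated at 0.19, 0.216 and -0.15 in their deviations from group means, so the numbers were not taken as pairs. Of the 33 called members, 24 kept call and direction in every alternative that tested them. Members that did not pass changed sign as follows. With library size alone the values were 0.008 for Adamts15, 0.51 for Adamts6, 0.248 for Adamts9, 0.312 for Col16a1, 0.351 for Col20a1, 0.452 for Col6a5, 0.243 for Mmp23 and 0.35 for Mmp25. With no count filter they were 0.011 for Adamts6 and 0.031 for Col6a5, and with upper-quartile factors -0.118 for Col4a6 and -0.179 for Mmp9. Col6a5 and Mmp25 stood at 0.036 and 0.055 with DESeq2, at 0.067 and 0.828 with limma-voom, and at 0.161 and 0.203 with the replicate block. Over left-out libraries the ranges were -0.41 to 0.13 for Adamts6, -0.37 to 0.01 for Col16a1, -0.38 to 0.066 for Col20a1, -0.30 to 0.48 for Col4a6, -0.36 to 1.13 for Col6a5, -0.61 to 2.34 for Mmp25 and -0.43 to 1.83 for Mmp9. The cause was not tested. Depth limits the 34 members that were counted but not tested.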

Other observations

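Some collagen and ADAMTS genes with too few reads for the test are given as reads, chosen after their values were seen. Col26a1 had 4, 38 and 30 reads in cerulein libraries and 1, 1 and 0 reads in saline libraries, a ratio of 22.7 with an exact 95% interval of 6.06 to 191. This interval covers counting error only. The floors below take the cerulein reads as exact, so their folds are not confidence bounds. Interval and floors leave out the spread between libraries, which for Col26a1 was 0.473, 4.45 and 3.79 CPM in cerulein libraries. Col8a2, the partner chain of Col8a1 in collagen VIII, had 8, 6 and 6 reads in cerulein libraries and none in saline libraries, at least 4.20-fold higher against a floor of 3 reads over the group. Col2a1, the cartilage collagen, had 3, 5 and 3 reads in cerulein libraries and none in saline libraries, at least 2.31-fold higher. Adamts16 had 0, 1 and 0 reads in cerulein libraries and 7, 1 and 3 reads in saline libraries.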
